A study of Danio rerio with 6 samples.

Results

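A set of 52 zebrafish gene models that the authors listed as uncharacterized is described here, in pools of whole larvae left untreated or exposed to hydrogen peroxide (H2O2). Their sheet of uncharacterized models holds 57 identifiers. Of these, 1 is a transcript identifier with no values in the main table, 4 models (CABZ01041812.1, zgc:109934, CU638738.1 and CR391991.1) were set aside by symbol, and the remaining 52 of the 670 genes of the main table are the members. All 52 are protein coding. The annotation sheet gave 27 of them a named protein family and entered the family of 25 as UNKNOWN, although 13 of those 25 carried another uninformative wording, such as UNCHARACTERIZED or AMBIGUOUS, in the main table.

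Polyadenylated RNA was sequenced from 3 untreated pools and from 3 pools kept in 3 mM H2O2. The study's methods name the nacre strain, whose larvae lack melanophores because of a mutation in mitfa, while its results call the larvae wildtype. GEO's labels state an age of 3 days post fertilization and a treatment of 2 hours, whereas the study's text states 4 days and 3 hours, and the files do not settle which holds. The study states that the pools for its biological replicates came from independent mating pairs, but not whether treated and untreated pools shared parents. All pools were made of whole larvae and were sequenced in 1 lane. A level is therefore an average over every tissue of the larva, and fewer cells of a type cannot be told apart from less RNA per cell. Tricaine was used to anesthetize the larvae.

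A gene model is a predicted transcript unit of a genome annotation. Zebrafish models without an informative name carry the name of the sequenced clone or contig that holds them, with prefixes such as si:, zgc:, BX or CABZ. A missing name says that the locus had not been matched to a studied gene when the annotation was made, and says nothing of what its protein does. H2O2 is a small oxidant that crosses membranes and that cells also make themselves at wounds, where it acts on the epidermis.

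Values are log2 of CPM plus 1, CPM being a gene's reads scaled to a common library total,, as deposited, so a value of 0 means that no read was found. The steps between values implied totals of 24727594 to 39766947 reads per library, the lowest of them in H2O2 replicate 3, and the thinnest member value rested on 13 reads. Of 35 marker genes chosen for 9 larval cell types, the authors' list of the 48 most abundant genes held 11, namely 7 of 7 for muscle, 3 of 4 for epidermis and 1 of 3 for liver, so the muscle and skin of the larva stand at the top of these libraries. The table of 670 genes is what remained after the authors kept genes with an unadjusted p under 0.05 and log2 CPM above 1 in the same libraries. Every member therefore had to differ between the groups to be listed, and the shares below are descriptions read beside those of the whole table.

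Higher values in H2O2 were seen for 35 of the 52 members (67.3%, against 61.8 percent of the table) and lower values for 17 (32.7%, against 38.2 percent). In 33 members all 3 treated libraries lay above all 3 untreated ones (63.5%, against 58.4 percent of the table), and in 13 all lay below (25.0%, against 35.5 percent). The 6 members whose groups overlapped were BX548011.3, CU633999.1, CU915778.1, zgc:112160, si:dkey-22f5.9 and zgc:66382. No member passed an adjusted p of 0.05 in limma with a Benjamini-Hochberg correction for 24050 expressed genes (0 of 52, against 0.0 percent of the table). At an unadjusted p under 0.05, limma counted 32 members higher (55.5 percent of the table) and 17 lower (37.8 percent). The lowest adjusted p-values were those of si:ch73-25i22.2 at 0.0838 and of zgc:162184 and si:dkey-104n9.1, both at 0.0849. The p-values set the difference between the groups against the spread among pools of the same group, over these 6 pools only. That spread was moderated, that is, drawn toward the spread of the other genes of the table (prior degrees of freedom 4.405). Those genes were themselves selected by p in the same libraries. In limma without moderation the adjusted p was 0.702 for si:ch73-25i22.2 and si:dkey-104n9.1, and 0.745 for zgc:162184.

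Median differences were 0.60 on the log2 scale among the 35 higher members and -0.51 among the 17 lower ones, against 0.47 and -0.50 in the table. On the linear CPM scale the higher members ranged from 1.32-fold (TTC17) to 2.93-fold (CABZ01087111.1), and the lower members from 0.464 (si:dkey-22f5.9) to 0.739 (CABZ01076801.1) of the untreated level. Members were less abundant than the table as a whole, with a median mean level of 2.82 on the log2(CPM + 1) scale against 3.97. Within the set, models of UNKNOWN family had a lower median level (2.21) than those with a named family (3.52) and a shorter genomic span (7776 bp against 20594 bp, with 14457 bp in the table). The split between directions was 19 higher and 8 lower for the named families and 16 higher and 9 lower for the UNKNOWN ones. Higher UNKNOWN models had a median difference of 0.77, and higher named ones 0.53.

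**Figure D1:**
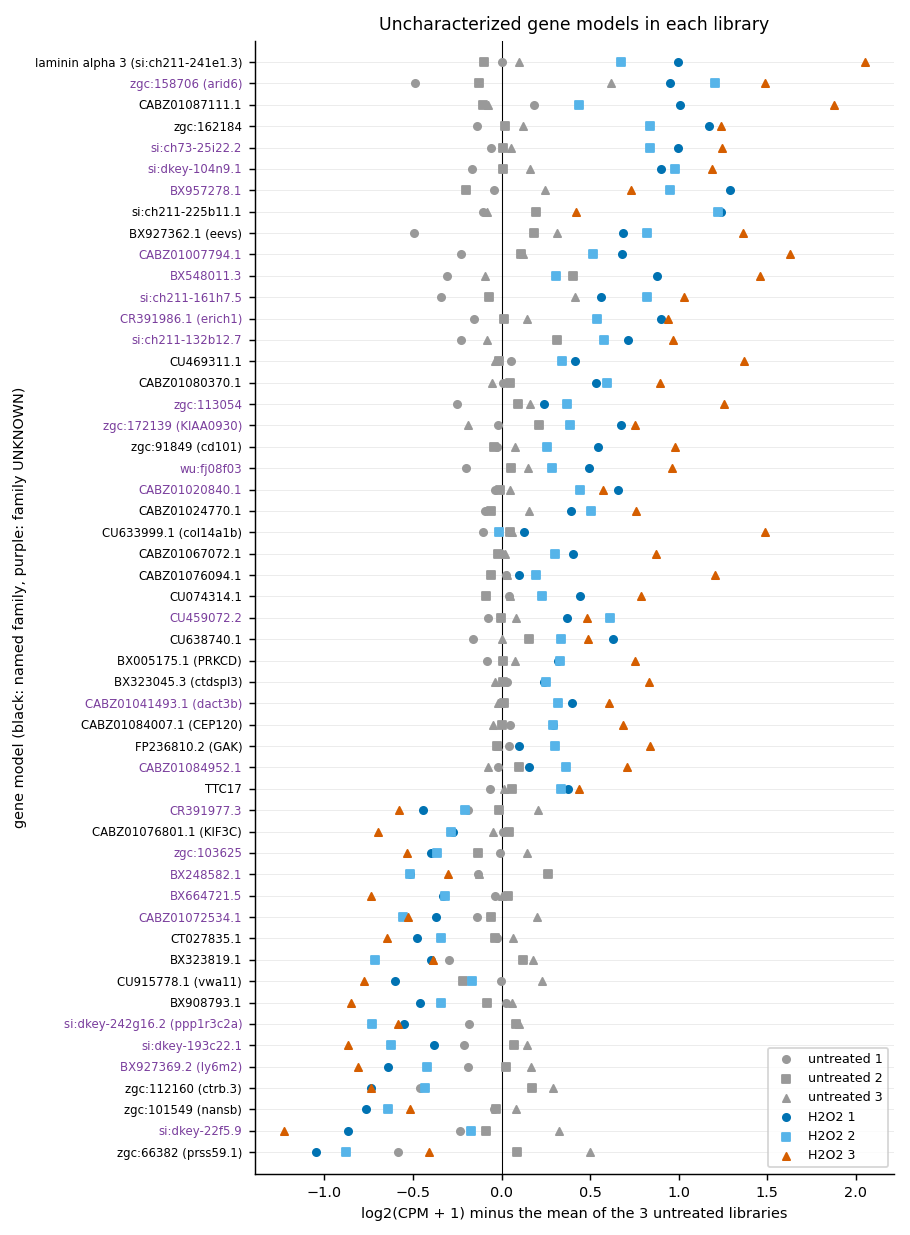
Each of the 52 gene models is a line, ordered by its difference, and each point is 1 library, plotted as its log2(CPM + 1) minus the mean of the 3 untreated libraries. The 35 upper models have most treated points to the right of 0, with H2O2 replicate 3 (orange triangles) outermost in 30 of them, and the 17 lower models have treated points to the left.

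The treated pools were not equally far from the untreated ones. Across the 35 higher members the median distance from the untreated mean was 0.54 in H2O2 replicate 1, 0.39 in replicate 2 and 0.94 in replicate 3. H2O2 replicate 3 was the highest treated library in 30 of the 35 (85.7%), as in 76.3% of the higher genes of the table. The 5 exceptions were BX957278.1, si:ch211-225b11.1, CABZ01020840.1 and CU638740.1, highest in replicate 1, and CU459072.2, highest in replicate 2. Among the 17 lower members replicate 3 was lowest in 10 (58.8%, and 57.4% in the table). Without that library 9 members, all higher ones, moved by over 1.5 times. Their differences went from 0.53 to 0.06 in CU633999.1, from 0.50 to 0.14 in CABZ01076094.1, from 0.41 to 0.20 in FP236810.2 and from 0.62 to 0.30 in zgc:113054. For CU469311.1 the difference went from 0.71 to 0.38, for BX323045.3 from 0.44 to 0.24, for CABZ01007794.1 from 0.94 to 0.60, for CABZ01084952.1 from 0.41 to 0.26 and for CABZ01087111.1 from 1.11 to 0.72. Whether the lower depth of this library plays a part in its distance was not tested.

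**Figure D2:**
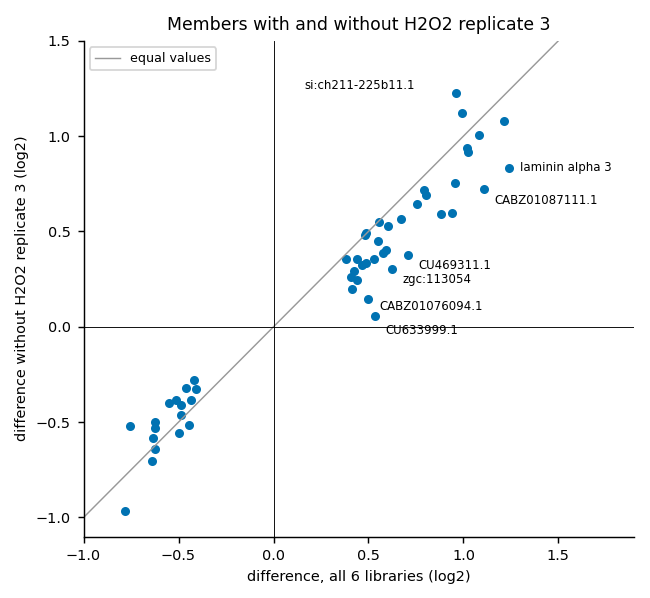
Each point is 1 of the 52 gene models, with its H2O2 minus untreated difference in log2(CPM + 1) from all 6 libraries on the horizontal axis and the same difference without H2O2 replicate 3 on the vertical axis, and the grey line marks equal values. Most models with positive differences lie below the line, CU633999.1 and CABZ01076094.1 farthest in proportion at 0.06 and 0.14, while si:ch211-225b11.1 lies above it.

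Matrix proteins form the fibrils and basement membranes on which epithelia rest. The 5 named members grouped under them, 4 higher and 1 lower, also take in a lysyl oxidase and a model with a von Willebrand factor A domain. The largest difference of all 52 members was that of the model ENSDARG00000022615 (chromosome 2 from 1128112 to 1169253 on the Zv9 assembly, minus strand), annotated as laminin subunit alpha 3. This chain belongs to the laminin of epithelial basement membranes, to which basal skin cells hold through hemidesmosomes. Its values were 3.13, 3.03 and 3.22 in the untreated libraries and 4.12, 3.80 and 5.18 in the treated ones. All treated libraries lay above all untreated ones, replicate 3 by the most, and the difference was 1.24 ± 0.31 (standard error, limma, n = 3 per group), or 2.78-fold in CPM, with an adjusted p of 0.545.

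The lysyl oxidase model CU469311.1 (chromosome 10 from 20441709 to 20480325) measured 3.67, 3.60 and 3.58 untreated and 4.03, 3.96 and 4.99 in H2O2, a difference of 0.71 ± 0.25 without overlap. Lysyl oxidases cross-link collagen and elastin, in a reaction that itself releases H2O2. On the same strand, 8767 bp away, lies loxl2a, with the same family text and values of 3.68, 3.85 and 3.76 untreated and 4.28, 4.03 and 4.80 in H2O2 (0.61 ± 0.19). The treated libraries stood in the same order in both models, which is also their order by median over the higher genes of the table. Whether these are separate genes or parts of 1 gene was not tested.

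Both collagen models were abundant, and their differences rested on a single pool. The collagen IX alpha 1 model CABZ01076094.1, a fibril-associated collagen known from cartilage, had values of 6.90, 6.82 and 6.91 untreated and 6.97, 7.07 and 8.08 in H2O2. It was the most abundant member, with a difference of 0.50 ± 0.27 and treated replicates 1 and 2 only just above the untreated libraries. CU633999.1, named col14a1b in the reference and thus also a fibril-associated collagen, had 5.44, 5.60 and 5.60 untreated and 5.68, 5.53 and 7.03 in H2O2, and its groups overlapped (0.53 ± 0.35). The lower matrix-linked model was CU915778.1 (vwa11, with a von Willebrand factor A domain, a fold that binds matrix and other ligands), at 2.14, 1.92 and 2.37 untreated and 1.54, 1.97 and 1.37 in H2O2, with overlap between the groups.

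Of 15 characterized matrix-linked genes, found by the starts of their symbols, 12 were higher and 3 lower, where 61.8 percent of the table was higher. Their median difference was 0.43, and none passed the adjusted threshold. The list is mixed and also holds integrins and matrix-degrading proteases. The proteases mmp9 (1.95 ± 0.43) and mmp13a (1.61 ± 0.38) had the largest positive differences in it. Among the 15 were both chains of the integrin that holds laminin in hemidesmosomes. Untreated itgb4 had values of 5.96, 6.08 and 6.12, against 7.08, 6.70 and 7.64 in H2O2 (1.09 ± 0.22), and itga6b had 5.64, 5.84 and 5.77 against 6.57, 6.36 and 7.18 (0.95 ± 0.20). In both integrins and in the laminin model the treated libraries stood in the same order, replicate 3 highest and replicate 2 lowest. That order is not particular to them. Across the 414 higher genes of the table the median distance from the untreated mean was 0.72 in replicate 3, 0.42 in replicate 1 and 0.34 in replicate 2. COL7A1, the collagen of the fibrils that anchor that membrane to the dermis, differed by 0.43 ± 0.21. The 3 lower genes were p4ha1b, serpinh1a and serpinh1b, which serve the hydroxylation and folding of collagen, and serpinh1b had the largest of their differences at -1.64 ± 0.20.

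**Figure D3:**
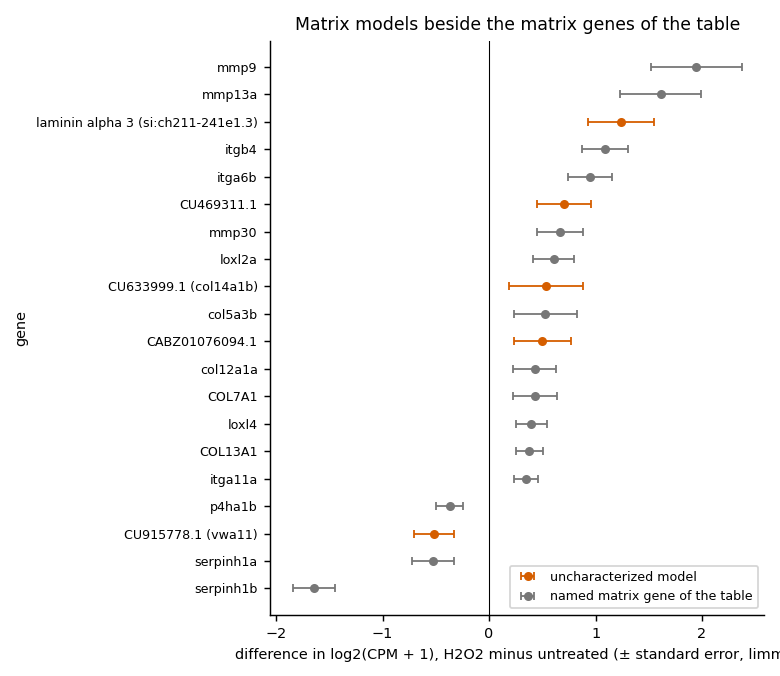
Difference in log2(CPM + 1), H2O2 minus untreated, with its limma standard error. Orange marks the 5 uncharacterized matrix-linked models, and grey the 15 characterized matrix-linked genes of the table, integrins and matrix-degrading proteases among them. The laminin alpha 3 model at 1.24 lies next to itgb4 (1.09) and itga6b (0.95), and vwa11 at -0.51 lies next to serpinh1a (-0.53).

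Proteases were represented by 3 members, 1 higher and 2 lower. The calpain model zgc:162184 (chromosome 17 from 45821870 to 45846739) belongs to the calcium-activated intracellular proteases. It had 2.54, 2.70 and 2.80 untreated and 3.85, 3.51 and 3.91 in H2O2, a difference of 1.08 ± 0.15 or 2.33-fold in CPM. The treated libraries lay close together and well above the untreated ones, and no other calpain symbol was in the table.

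The lower proteases were digestive enzymes of the exocrine pancreas. The trypsin model zgc:66382 (prss59.1) measured 1.85, 2.52 and 2.93 untreated and 1.39, 1.56 and 2.03 in H2O2, and the chymotrypsinogen model zgc:112160 (ctrb.3) 2.17, 2.80 and 2.92 untreated and 1.89, 2.20 and 1.89 in H2O2. Differences were -0.78 ± 0.28 and -0.64 ± 0.21, and in both models untreated replicate 1 lay inside the range of the treated libraries. A neighbouring trypsin model of the same family text, si:ch73-103b2.3, lay 3510 bp from zgc:66382 on the same strand with a difference of -0.54 ± 0.24, and near-identical trypsin copies can share reads. The pancreatic elastase ela3l, the only other digestive protease found by symbol, differed by -0.46 ± 0.16. Of the 7 pancreatic markers chosen for the label check, none was found in the table by its symbol, and prss59.1 is there only as zgc:66382. The markers were not looked up by identifier among models with clone names. The part of pancreatic cell number in these values was not tested.

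Metabolic enzymes gave 3 members, 2 higher and 1 lower. BX927362.1 is eevs in the reference, the enzyme that makes the cyclic sugar from which fish build gadusol, a compound that absorbs ultraviolet light. It measured 4.01, 4.69 and 4.82 untreated and 5.19, 5.33 and 5.87 in H2O2, a difference of 0.96 ± 0.25 without overlap. Right beside it, 1311 bp away on the opposite strand, lies another member, zgc:113054, entered as UNKNOWN but carrying the gene ontology terms methyltransferase activity and oxidoreductase activity. In zebrafish the step that follows eevs in gadusol synthesis is carried out by an enzyme with both activities. With eevs on the minus strand (43369376 to 43380209 of chromosome 6) and zgc:113054 on the plus strand (43381521 to 43406057), the models start next to each other and run apart.

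The values of zgc:113054 were 5.36, 5.71 and 5.77 untreated and 5.85, 5.98 and 6.87 in H2O2 (0.62 ± 0.26). In each group the 3 libraries stood in the same order as for eevs, with untreated replicate 1 lowest and H2O2 replicate 3 highest. The difference of eevs without H2O2 replicate 3 was 0.75, and that of zgc:113054 was 0.30, so the treated libraries other than replicate 3 separated the groups more clearly for eevs.

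CU638740.1, a retinol dehydrogenase model of the family that oxidizes retinol on the way to retinoic acid, had 3.12, 3.44 and 3.29 untreated and 3.91, 3.61 and 3.77 in H2O2 (0.48 ± 0.14). Symbol starts chosen for retinoid genes found 4 in the table, of which 3 were higher, where 61.8 percent of the table was higher. These were cyp26a1, which degrades retinoic acid (0.71 ± 0.22), dhrs13a.2 (0.54 ± 0.25) and dhrs13l1 (0.56 ± 0.19, with overlapping groups). The dhrs13 genes were found by a general symbol start and share the family text of CU638740.1. The retinol esterifying lrata was lower, by -1.01 ± 0.16. The sialic acid synthase model zgc:101549 (nansb) makes the sugar that caps many glycoproteins, and had 3.59, 3.60 and 3.71 untreated and 2.86, 2.99 and 3.11 in H2O2. Its libraries were tight within each group and well apart between them, with a difference of -0.64 ± 0.12 and an adjusted p of 0.266.

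Transport and cytoskeleton gave 4 members, 3 higher and 1 lower. The SLC6 model si:ch211-225b11.1 belongs to the sodium and chloride coupled carriers of amino acids and transmitters, and had 3.45, 3.75 and 3.47 untreated and 4.80, 4.78 and 3.98 in H2O2. H2O2 replicate 3 was its lowest treated library, and the difference of 0.96 ± 0.22 was 1.23 without it. CABZ01084007.1 (CEP120, a centriole protein) had 3.98, 3.94 and 3.89 untreated and 4.23, 4.23 and 4.62 in H2O2. FP236810.2, of the auxilin family that uncoats clathrin vesicles and named GAK in the reference, had 3.14, 3.07 and 3.07 untreated and 3.19, 3.39 and 3.93 in H2O2. The lower member was the kinesin motor CABZ01076801.1 (KIF3C), at 4.15, 4.18 and 4.09 untreated and 3.86, 3.85 and 3.44 in H2O2, a difference of -0.42 ± 0.14.

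Signalling enzymes were 2 higher and 1 lower. BX005175.1 (PRKCD in the reference), a protein kinase C of the kind activated by diacylglycerol, had 5.64, 5.73 and 5.80 untreated and 6.04, 6.05 and 6.47 in H2O2 (0.47 ± 0.15). The phosphatase model BX323045.3 (ctdspl3) had 4.21, 4.19 and 4.14 untreated and 4.42, 4.43 and 5.01 in H2O2 (0.44 ± 0.17), and ctdspl2a, of the same family text, differed by 0.37 ± 0.16. The adenylate cyclase model BX323819.1, of the enzymes that make cyclic AMP, had 2.23, 2.65 and 2.70 untreated and 2.13, 1.81 and 2.14 in H2O2 (-0.50 ± 0.17). Its groups did not overlap, but untreated replicate 1 lay close to H2O2 replicates 1 and 3. Of 4 genes found by symbol starts chosen for cyclic AMP, pde8a and crebrf were higher and GPR3 and pde6h lower. A matching symbol start alone does not place a gene in that pathway.

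Immunoglobulin superfamily proteins sit on cell surfaces and bind other cells, and both members of this kind were higher. zgc:91849 (cd101) had 2.95, 2.93 and 3.05 untreated and 3.52, 3.24 and 3.96 in H2O2 (0.59 ± 0.18). CABZ01067072.1, an IGSF3 model, had 2.05, 2.03 and 2.07 untreated and 2.46, 2.35 and 2.92 in H2O2 (0.53 ± 0.16). A model already named IGSF3 in the table was also higher, by 0.42 ± 0.20, with overlapping groups. Its family text was that of zgc:91849 and not that of CABZ01067072.1. Sequences were not compared, so whether any of these models share reads was not tested.

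The 4 members with nuclear or chaperone-linked families were 3 higher and 1 lower. Midnolin, known in mammals for handing short-lived nuclear proteins to the proteasome, is the family of CABZ01087111.1 (chromosome 16 from 52537808 to 52544134). Its values were 1.86, 1.58 and 1.61 untreated and 2.69, 2.12 and 3.56 in H2O2, and the difference of 1.11 ± 0.31 corresponded to 2.93-fold in CPM, at low counts. The model CABZ01080370.1, of the class 2 POU transcription factors that bind the octamer motif, had 3.24, 3.27 and 3.17 untreated and 3.76, 3.82 and 4.12 in H2O2 (0.67 ± 0.13). TTC17, with tetratricopeptide repeats, had 4.28, 4.41 and 4.36 untreated and 4.73, 4.69 and 4.79 in H2O2, the smallest difference of the higher members (0.38 ± 0.11).

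CT027835.1, of the family of the aryl hydrocarbon receptor interacting protein, a partner of Hsp90 that holds the receptor in the cytoplasm, was the lower of these 4. It had 2.01, 2.00 and 2.10 untreated and 1.56, 1.69 and 1.39 in H2O2, a difference of -0.49 ± 0.13 with the groups well apart. Symbol starts chosen for that receptor found 3 genes in the table, 1 higher and 2 lower, where 61.8 percent of the table was higher. The lower ones were hsp90aa1.1 and hsp90aa1.2 (-0.68 ± 0.16 and -0.80 ± 0.18), while cyp1a, the receptor's best known target, was higher (1.62 ± 0.28). A matching symbol start alone does not tie a gene to the receptor. As for the SLC6 model, H2O2 replicate 3 was the lowest treated library for cyp1a, at 4.63 against 5.65 and 5.66.

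**Figure D4:**
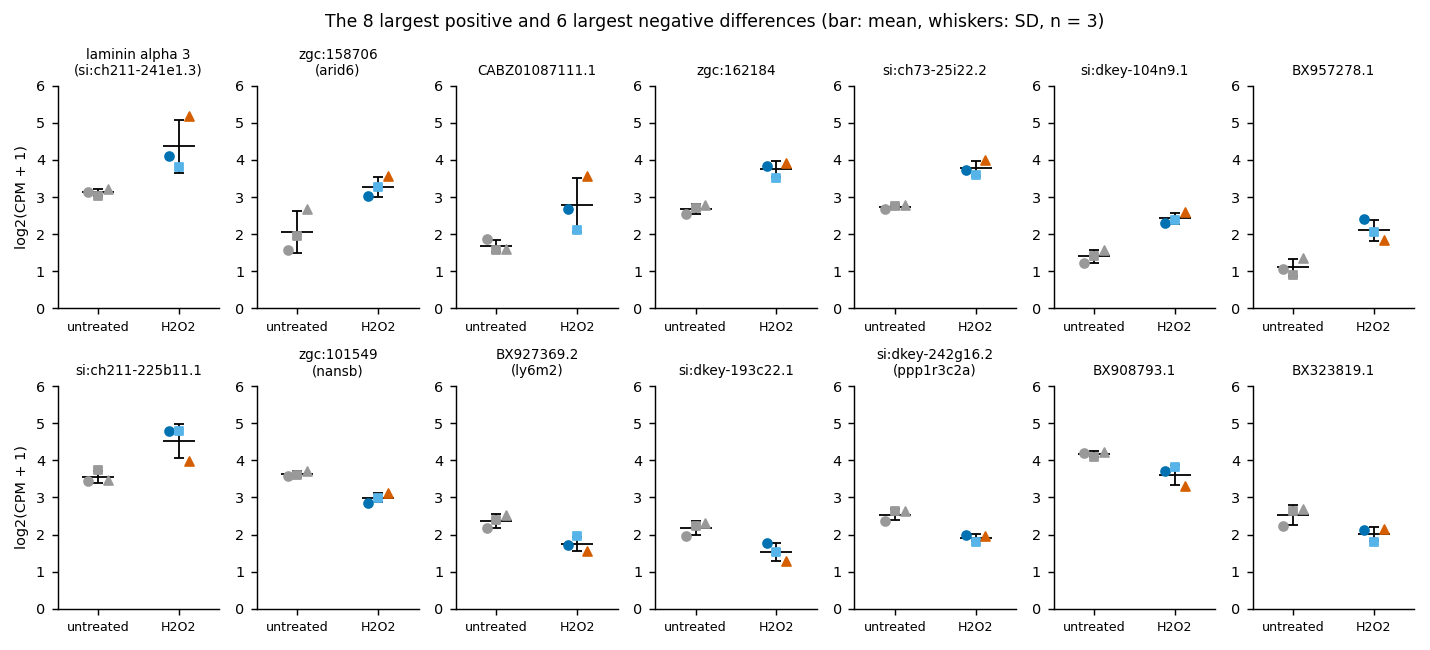
Values of log2(CPM + 1) in each library for the members without overlapping groups that had the 8 most positive and the 6 most negative differences, with circles, squares and triangles for replicates 1, 2 and 3, a bar for the mean and whiskers for the SD (n = 3). The calpain model zgc:162184, si:ch73-25i22.2 and si:dkey-104n9.1 show the tightest treated groups of the positive ones, and the laminin model ENSDARG00000022615 and the midnolin model CABZ01087111.1 the widest.

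Among the 25 models of UNKNOWN family, 6 had a gene name in the reference (arid6, erich1, KIAA0930, dact3b, ppp1r3c2a and ly6m2) and 10 carried a gene ontology term. zgc:158706 (arid6, of the AT-rich interaction domain proteins that bind DNA) had the largest difference of them. It had 1.58, 1.94 and 2.68 untreated and 3.02, 3.27 and 3.56 in H2O2, so its untreated libraries were spread more widely than the treated ones, and the difference was 1.21 ± 0.27. The model si:ch73-25i22.2 (chromosome 18 from 5109404 to 5124138), with terms for lyase activity, DNA metabolism and response to stress, had 2.69, 2.75 and 2.80 untreated and 3.74, 3.58 and 3.99 in H2O2. Its difference of 1.03 ± 0.14 came with the lowest adjusted p of the members, given above.

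Next came si:dkey-104n9.1 (chromosome 8 from 13360832 to 13365015), with no term of any kind, at 1.23, 1.41 and 1.57 untreated and 2.30, 2.38 and 2.59 in H2O2 (1.02 ± 0.14). BX957278.1, annotated with ion binding and an intracellular location, had 1.07, 0.91 and 1.36 untreated and 2.40, 2.07 and 1.84 in H2O2 (0.99 ± 0.18), and H2O2 replicate 3 was its lowest treated library, as for the SLC6 model. The most abundant UNKNOWN model was CABZ01007794.1, with 5.65, 5.99 and 6.00 untreated and 6.56, 6.40 and 7.51 in H2O2 (0.94 ± 0.27). In the higher direction the other UNKNOWN models ranged from 0.41 (CABZ01084952.1) to 0.88 (BX548011.3), among them CR391986.1 (erich1, 0.79), zgc:172139 (KIAA0930, 0.60) and CABZ01041493.1 (dact3b, of a family that modulates Wnt signalling, 0.44). The others between these bounds were si:ch211-161h7.5 (0.80), si:ch211-132b12.7 (0.75), wu:fj08f03, which carries a term for RNA binding (0.58), CABZ01020840.1 (0.56) and CU459072.2 (0.49).

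Of the 9 lower UNKNOWN models, si:dkey-22f5.9, with a term for response to stress, had the largest difference, -0.76 ± 0.27, at 1.61, 1.75 and 2.16 untreated and 0.97, 1.66 and 0.61 in H2O2. H2O2 replicate 2 lay between untreated replicates 1 and 2, and the replicate 3 value stands for 13 reads. BX927369.2 (ly6m2, of the small surface proteins with a Ly6 fold) had 2.18, 2.39 and 2.54 untreated and 1.73, 1.95 and 1.56 in H2O2 (-0.62 ± 0.15). The peptidase-annotated si:dkey-193c22.1 had 1.95, 2.23 and 2.31 untreated and 1.78, 1.54 and 1.30 in H2O2 (-0.62 ± 0.16). Like all lower UNKNOWN models except CR391977.3, these 3 were below a level of 3 in every library. Glycogen-targeting subunits of protein phosphatase 1 are the family of si:dkey-242g16.2 (ppp1r3c2a), which had 2.36, 2.62 and 2.64 untreated and 1.99, 1.81 and 1.95 in H2O2 (-0.62 ± 0.13). The remaining 5 lower UNKNOWN models ranged from -0.48 (CABZ01072534.1) to -0.41 (CR391977.3), with BX664721.5, BX248582.1 and the methyltransferase-annotated zgc:103625 in between. None of the 5 had overlapping groups, and neither did 238 of the 256 lower genes of the table.

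By locus, the members lay on 21 chromosomes, at most 5 on any of them. Starts within 1 Mb of the Zv9 chromosome start were found for 7 members (13.5%, against 6.12% of the table). A contig name beginning with CABZ was carried by 12 members, out of 13 such symbols in the whole table. The remaining one, CABZ01041812.1, was listed as uncharacterized too and set aside, so this share follows from how the models were listed by name. An NCBI gene identifier was attached to 73.1% of members and 89.0% of the table, and a gene ontology term to 53.8% and 71.5%. Within 100 kb of 12 members lay another gene of the table, with no overlap in any case. These made 11 pairs, since BX927362.1 and zgc:113054 neighbour each other, and both genes differed in the same direction in 9 of them (81.8%, against 77.5% of the 102 such pairs in the whole table). The pairs with opposite directions were si:ch211-161h7.5 (0.80) beside zgc:56530 (-0.42), at 5512 bp on the opposite strand, and CU459072.2 (0.49) beside CU638738.1 (-0.80). CABZ01072534.1 lay 1823 bp from wu:fc34e06 on the same strand, with differences of -0.48 and -0.61.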

How the data were processed

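Whole-larva RNA was measured in 3 untreated and 3 H2O2 libraries, grouped by GEO's labels. According to the study's methods the authors trimmed the reads, aligned them to Ensembl transcripts of Zv9 with RSEM and tested the genes with edgeR, and the labels further list TopHat, Cuffdiff, Cufflinks, FastQC and Bowtie2 2.0.9. The deposited log2 values per library are log2(CPM + 1), CPM being a gene's reads scaled by the authors to a common library total. The authors' fold changes, p-values and FDR, which the deposited tables also hold, were not used, nor were the separate lists of increased and decreased genes. A test for counts was not run, because reads could be recovered only for the selected genes (100% of values whole within 0.02).

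Differences were fitted by limma 3.58.1 in R 4.3.3, with treatment alone over 6 libraries, no trend, two-sided, over all 670 genes. Benjamini-Hochberg adjustment took 24050 tests, the expressed genes by the study's count, because the authors had chosen the table's genes by p in these very libraries. The fit was also run on simulated data with the same spread for every gene and no outlying library. Calls there were counted only with adjustment over the table alone, so that run does not check the adjustment used here. Alternatives were other adjustments, moderation, a pseudocount of 0.1 or 5, only genes at a mean log2 level of 3 or more, a replicate block, each library left out in turn, and neighbour windows of 50 and 250 kb. Every member is named. Named-family members BX908793.1, CU074314.1 and CABZ01024770.1 are counted and plotted, but their description is not reported here. Every library's value is given for each of the other named-family members and for the 8 largest positive and 6 largest negative differences without overlap (BX908793.1 only in the plot), and the choice of further UNKNOWN models (zgc:113054, CABZ01007794.1 and si:dkey-22f5.9) followed a look at their values. Relatives were found by symbol starts in 10 lists, of which the calpain and SLC6 lists had no gene in the table. The members and lists were chosen with earlier results of these data known. Names came from the name table by Ensembl identifier (33 of 52 found) and from RefSeq (GRCz12tu) by NCBI identifier (31 of 52). Coordinates are the deposited Zv9 ones. Promoters were not searched for motifs, as sequences were not used here.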

Additional observations from a re-analysis of the deposited data

How the results depend on the processing

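Each member fitted under an alternative had the same direction there as with all libraries and the settings used above (52 members, or 25 with the limit on the mean level). That was largely fixed in advance. Adjustment, moderation, the limit on the mean level and the replicate block leave the difference itself unchanged. Where groups did not overlap, neither a left-out library nor another pseudocount could reverse the direction. With the adjustment made over the 670 genes of the table alone, 49 of 52 members passed an adjusted p of 0.05, against 0 in the fit used above. Of the 670 genes themselves, 365 higher and 252 lower ones passed in that setting. Both counts follow from the smaller number of tests on a table already selected by p. With each library left out in turn the number past the threshold stayed at 0, the number higher stayed at 35 and lower at 17, and the numbers at an unadjusted p under 0.05 ranged from 27 to 34 higher and from 11 to 15 lower. The lower count was 11 without untreated replicate 2 and 11 without untreated replicate 3, against 17 with all libraries. Without moderation both counts fell, to 24 higher and 11 lower, against 32 and 17 in the fit used above. Limiting the fit to a mean log2 value of at least 3 kept 25 members, 21 higher and 4 lower, of which 18 and 4 had an unadjusted p under 0.05. The median difference of the UNKNOWN models was 0.56, against 0.32 with a pseudocount of 5 and 0.29 as a mean in place of the median. For the named models these values were 0.48, 0.36 and 0.30, so which class stood higher changed with the measure. Without H2O2 replicate 3 the medians were 0.39 for the UNKNOWN and 0.33 for the named models. A window of 250 kb gave 20 members with a neighbouring table gene, against 12 at 100 kb and 9 at 50 kb. The planned description of promoter motifs was not run, since promoter sequences were not used here.

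Neither the labels nor the study's text state whether same-numbered libraries were paired. Correlations over 669 genes of a table selected by p cannot decide it. The correlation of deviations between same-numbered libraries was 0.013, -0.082 and 0.043, and untreated replicate 2 correlated best with H2O2 replicate 1 (0.10). With the replicate number as a block, 11 members passed an adjusted p of 0.05 in limma, all higher, together with 51 higher and 20 lower genes of the table in all. Moderation drew the standard errors close together there. They were 0.173 for TTC17 and 0.216 for CU633999.1, against 0.112 and 0.349 in the fit used above. The members that passed were among those with the largest differences, and the count does not decide whether libraries were paired. Depth limits the lowest members, of which the thinnest value rested on 13 reads.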
